A study of Gallus gallus with 2 samples.

Results

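Chromosomes 9 and 10 of the chicken are of similar size, 23.4 and 19.9 Mb in the build galGal4, and carried 1225 of the 21993 long non-coding RNA (lncRNA) transcripts listed for breast muscle. The 1225 were every listed transcript placed on chromosome 9 (523) or chromosome 10 (702), without scaffolds assigned to these chromosomes. The transcripts had been measured in 1 pooled library of White Recessive Rock hens (WRR, a strain labelled fast-growing) and in 1 pooled library of Xing Hua hens (XH, a native Chinese chicken, slow-growing by its label). Each pool combined breast muscle RNA of 4 hens aged 7 weeks in equal amounts, from birds kept in separate cages on the same feed and picked for an average body weight of 625.3 ± 12.0 g in WRR and 328.5 ± 10.6 g in XH, with an error of unstated kind. Ribosomal RNA had been removed and the libraries were strand-marked. With 1 library per strain there was no replicate, so no test between strains was made and each difference is one between these 2 libraries. In pooled tissue, fewer cells of a type and less RNA per cell cannot be told apart. The tissue label could not be checked against muscle markers, because the table pairs no transcript with a gene name.

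Long non-coding RNAs are transcripts that are not translated into protein. Some act in the nucleus on nearby or distant genes, others bind proteins or microRNAs in the cytoplasm, and for most no function is known. In skeletal muscle a few are known to influence the differentiation of myoblasts and the maintenance of muscle mass. Birds carry a few large chromosomes and many small, gene-rich ones, and chromosomes 9 and 10 stand between these kinds in size. Chicken chromosome 9 carries PAX3, a transcription factor of muscle precursors, and chromosome 10 carries IGF1R, the receptor of the insulin-like growth factors, and MEF2A, a transcription factor of muscle differentiation. Where these genes lie relative to the listed transcripts was not analysed here.

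Reads on all listed transcripts made up 19.5% of the WRR total of 9.44 M reads and 24.4% of the XH total of 7.71 M reads. The transcripts of chromosomes 9 and 10 held 81639 reads in WRR against 115434 in XH, 4.42% and 6.13% of the listed reads. The median transcript of the 2 chromosomes had 22 reads in WRR against 28 in XH, so that most single ratios are known only roughly. The serial numbers of the listed transcripts were split into 3 runs, called series A, B and C here. Series B and C each begin where a long stretch of chromosome 1 begins, and series A holds all numbers before these. On chromosome 9 the numbers of series A do not follow the position. No source used here gives the origin of these series. Because the WRR to XH ratio differs strongly between them, results below are also given within series. Chromosome 9 held 112 transcripts of series A, 208 of series B and 203 of series C. Chromosome 10 held 124, 254 and 324.

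Listed lncRNAs lay more densely on chromosome 10. Chromosome 9 carried 22.3 listed transcripts per Mb and chromosome 10 carried 35.3, measured up to the last listed end. Among the 28 numbered autosomes these densities ranked 15th on chromosome 9 and 3rd on chromosome 10. Chromosomes 11 and 12, close to chromosome 10 in size at 19.4 and 19.9 Mb, had 19.7 and 19.5 per Mb. The median gap between consecutive transcripts was 2646 bases on chromosome 9 and 706 bases on chromosome 10. A next transcript within 5 kb followed 55.2% of transcripts on chromosome 9 and 71.2% on chromosome 10. On the other numbered autosomes this share ran from 40.4% on chromosome 25 to 70.8% on chromosome 19. It was 68.1% on chromosome 1, the largest, 61.15% on chromosome 11 and 55.5% on chromosome 12.

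Part of the higher density of chromosome 10 lay in 1 stretch. In windows of 2 Mb, chromosome 9 held 25 to 70 transcripts (median 40.5), with most in window 8, at 14 to 16 Mb. Chromosome 10 held 25 to 203 (median 59), with 203, or 28.9% of all its transcripts, in window 3, at 4 to 6 Mb. Without the window of most transcripts the density was 21.2 per Mb on chromosome 9 and 27.9 per Mb on chromosome 10. The fewest, 25, were found at 2 to 4 Mb and at 6 to 8 Mb on chromosome 9 and at 14 to 16 Mb on chromosome 10. The widest stretches with no listed transcript measured 1127791 bases on chromosome 9 (chr9:6305456-7433246) and 843155 bases on chromosome 10 (chr10:15336260-16179414).

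**Figure D1:**
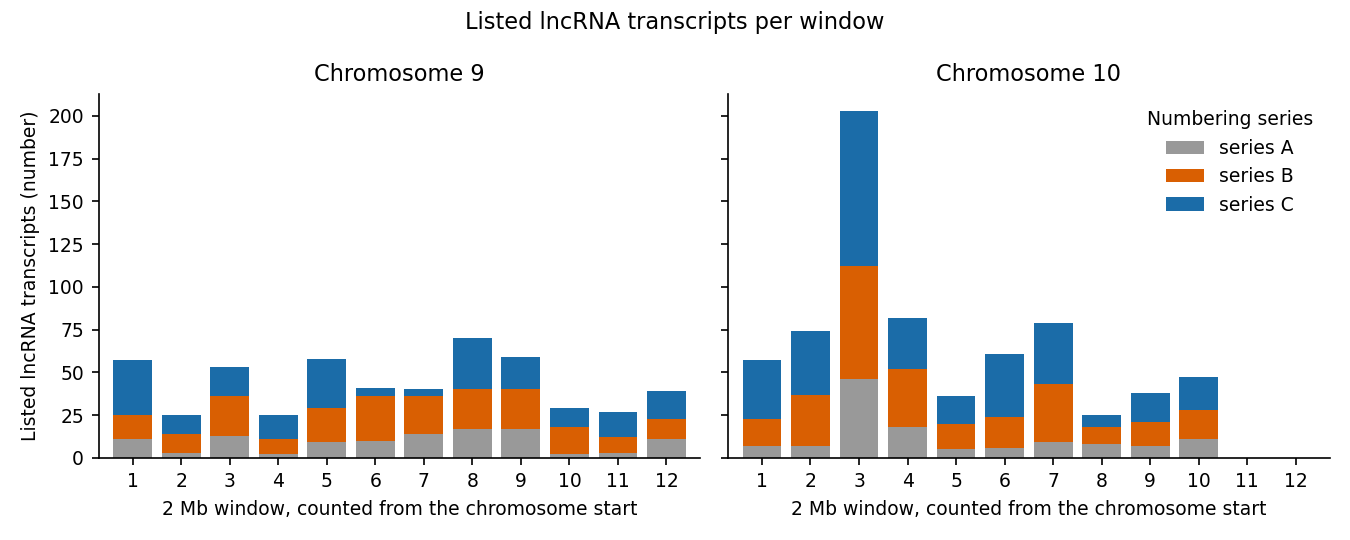
Number of listed lncRNA transcripts (vertical axis) in consecutive 2 Mb windows counted from the start of chromosome 9 (left) and chromosome 10 (right), with colours for the numbering series. Window 3 of chromosome 10 holds 203 transcripts, against at most 70 in any window of chromosome 9, and windows 6 and 7 of chromosome 9 hold few transcripts of series C.

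The transcripts themselves were alike in length on both chromosomes, with medians of 888 bases on chromosome 9 (quartiles 612 and 1365) and 897 bases on chromosome 10 (627 and 1362), against 841 bases for all other listed transcripts. The longest on chromosome 9 measured 10148 bases (chr9:14828880-14839027). It had 3.89 RPKM (reads per kilobase and per M reads of the library) over 82.2% of its length in WRR and 7.19 RPKM over 95.4% in XH. The longest on chromosome 10 measured 14490 bases (chr10:4264276-4278765) and had 0.387 RPKM in WRR, against 1.82 RPKM in XH. Its reads covered only 18.2% of it in WRR and 33.0% in XH, so that most of this long entry was without reads in each library.

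Gapped transcripts, whose interval on the genome is longer than the transcript, numbered 32 on chromosome 9 (6.12%) and 28 on chromosome 10 (3.99%), against 4.83% of all other listed transcripts. A spliced RNA has such a gap, but the table gives no exon structure. The longest gapped interval on chromosome 9 was that of a 1364-base transcript spread over 108476 bases (chr9:1625409-1733884), with 1.16 RPKM in WRR, against 5.51 RPKM in XH. On chromosome 10 a 999-base transcript was spread over 89979 bases (chr10:13018451-13108429), with 0.954 RPKM in WRR, against 2.72 RPKM in XH.

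Most of these lncRNAs were of low abundance, and over all series the chromosomes differed in the WRR library. The median level in WRR was 2.98 RPKM on chromosome 9 (95% interval from order statistics 2.79 to 3.22) and 2.53 RPKM on chromosome 10 (2.32 to 2.69). In XH it was 4.07 RPKM on chromosome 9 (3.80 to 4.42) and 4.23 RPKM on chromosome 10 (4.00 to 4.51). Over all series, the intervals of the chromosomes thus stood apart in WRR and overlapped in XH. All other listed transcripts had medians of 2.64 RPKM in WRR, against 4.50 RPKM in XH. These intervals treat transcripts as independent, which neighbours are not. Among transcripts that reached 0.5 RPKM in 1 library or both, the WRR median was higher on chromosome 9 in all 3 series. The XH median was higher there in series A and C and lower in series B. In series B, chromosomes 9 and 10 had 4.145 and 3.643 RPKM in WRR, against 2.941 and 4.243 RPKM in XH, the wider gap. Values over all series also mix unlike shares of series C, 38.8% on chromosome 9 and 46.15% on chromosome 10. At least 10 RPKM was reached in WRR by 59 transcripts of chromosome 9 (11.3%) and 53 of chromosome 10 (7.55%), and in XH by 93 (17.8%) and 130 (18.5%). Of all other listed transcripts, 11.3% reached it in WRR and 20.8% in XH. Chromosome 9 thus equalled the rest in WRR, and both chromosomes were below it in XH.

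A single transcript dominated chromosome 9. The 238-base transcript at chr9:9640866-9641103 had 13289 reads, or 5913 RPKM, in WRR, against 29462 reads (16046 RPKM) in XH, which was 27.3% and 42.9% of all reads on the listed transcripts of the chromosome. Its level in XH was the highest of any listed transcript in that library. It was 2.71-fold lower in WRR, with an exact 95% interval of 2.66 to 2.77 that covers counting error only, and its coverage was 66.8% in WRR against 95.8% in XH. With this transcript the chromosome had, per M reads, 5155 reads in the WRR library (exact Poisson interval 5109 to 5201) against 8911 in the XH library (8844 to 8978). Without it these sums were 3748 in WRR against 5092 in XH. Chromosome 10, which no transcript dominated, had 3490 in the WRR library (3453 to 3528) against 6052 in the XH library (5997 to 6107). The ratio of summed reads, WRR over XH, was therefore 0.579 on chromosome 9 and 0.577 on chromosome 10, but 0.736 (0.726 to 0.747) and 0.576 (0.568 to 0.584) without the transcript of most reads on each. For all other listed transcripts it was 0.815, and 0.730 without the one of most reads.

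The 3 transcripts of next highest mean level on chromosome 9 were also lower in WRR on the scale of the library totals. The 675-base transcript at chr9:21734836-21735510 had 209 RPKM in WRR, against 374 RPKM in XH, with a WRR to XH ratio of 0.561 (0.522 to 0.601). The 3120-base transcript at chr9:18740136-18743255 had 113 RPKM in WRR, against 152 RPKM in XH, with a WRR to XH ratio of 0.739 (0.705 to 0.774), and was covered over 99.97% of its length in both libraries. The 203-base transcript at chr9:9803463-9803665 had 38.1 RPKM in WRR, against 106 RPKM in XH, with a WRR to XH ratio of 0.359 (0.269 to 0.476). None of these 3 had an interval that reached 1, but those at chr9:21734836-21735510 and chr9:18740136-18743255 turned to the other side of 0, at log2 values of 0.080 and 0.48, when all transcripts were centred on their overall median. The 238-base and the 203-base transcript, both of series C, turned to 0.20 and 0.16 when centred on their series. The transcript next in mean level, named after its values were seen, was higher in WRR. This gapped 1186-base transcript of series C, at chr9:8446953-8452868, had 101 RPKM in WRR, against 41.2 RPKM in XH, with a WRR to XH ratio of 2.45 (2.18 to 2.76).

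The most abundant transcripts of chromosome 10 also went different ways. Adjoining entries at chr10:8645927-8647212 and chr10:8647336-8647948 had close levels in both libraries, and stood at 0.72 and 0.91 on the log2 scale when centred on the overall median. The first had 81.1 RPKM in WRR, against 93.0 RPKM in XH, with a WRR to XH ratio of 0.872 (0.796 to 0.955). The second had 112 RPKM in WRR, against 113 RPKM in XH, with a WRR to XH ratio of 0.994 (0.885 to 1.12). The gapped 648-base transcript at chr10:18907263-18912557 had 54.6 RPKM in WRR, against 165 RPKM in XH, 3.02-fold lower in WRR (2.66 to 3.44). The 235-base transcript at chr10:19388537-19388771 went the other way, with 383 reads, or 173 RPKM, in WRR, against 50 reads (27.6 RPKM) in XH, with a WRR to XH ratio of 6.26 (4.65 to 8.58). The larger number of reads in WRR covered 83.8% of this transcript, against 99.2% in XH.

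**Figure D2:**
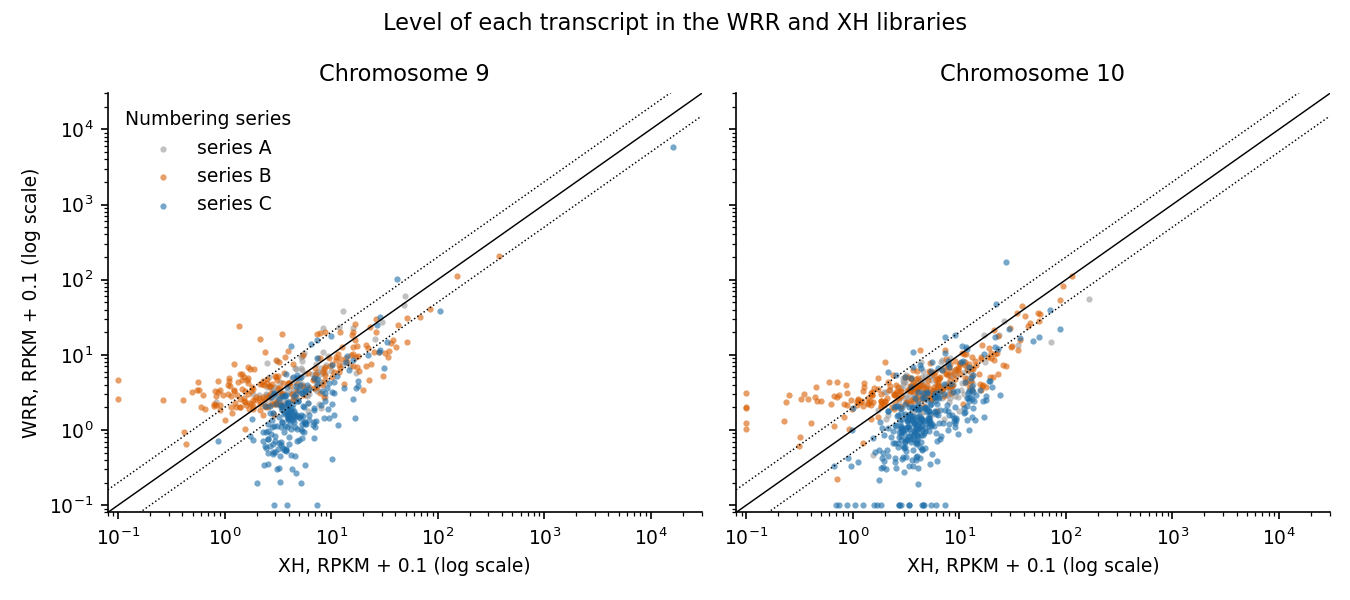
Level of each transcript that reached 0.5 RPKM in 1 library or both, in WRR (vertical) and XH (horizontal), as RPKM + 0.1 on log scales, for chromosome 9 (left) and chromosome 10 (right), with colours for the numbering series. The solid line marks equal levels and the dotted lines 2-fold differences. Series C lies mostly below the lower dotted line, series B on both sides, and the 238-base transcript of chromosome 9 stands alone at the upper right.

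Coverage, the percent of a transcript's length that reads cover, followed the same pattern as level over all series. In WRR the median was 84.7% on chromosome 9 (95% interval 82.8 to 86.0%) and 77.1% on chromosome 10 (75.04 to 79.8%). In XH it was 88.8% (87.4 to 89.8%) and 89.3% (87.8 to 90.1%). Among transcripts that reached 0.5 RPKM in 1 library or both, the WRR medians of chromosomes 9 and 10 were 85.5% and 81.8% in series A. They were nearly equal in series B, at 92.9% and 92.4%, and 63.75% and 55.3% in series C. In XH, series B had the wider gap, with 79.4% on chromosome 9 and 82.5% on chromosome 10. Under 50% of the length was covered in WRR for 73 transcripts of chromosome 9 (13.96%) and 160 of chromosome 10 (22.8%), and in XH for 50 (9.56%) and 88 (12.5%). All other listed transcripts had a median coverage of 79.8% in WRR, against 89.6% in XH, and 23.1% of them in WRR and 11.8% in XH were covered under 50%. Chromosome 10 was thus close to the rest in these shares, and chromosome 9 had a smaller share in WRR. Coverage of at least 90% in both libraries was found for 98 of the 523 transcripts of chromosome 9 and 128 of the 702 of chromosome 10. Over all 21993 listed transcripts it was found for 4485. Transcripts covered to under 50% in WRR and at least 90% in XH numbered 28 and 44, against 1598 of all 21993 listed. Those with the opposite pattern numbered 16 and 11, against 457 of all listed.

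The balance between the strains differed between the 2 chromosomes. The ratio was taken as log2((WRR + 0.1) / (XH + 0.1)) of the RPKM values, a scale that understates the change of low transcripts, for the 520 transcripts of chromosome 9 and the 689 of chromosome 10 that reached 0.5 RPKM in 1 library or both. The other 3 and 13 transcripts did not reach this level. The median log2 ratio was -0.54 on chromosome 9 (-0.69 to -0.41) and -0.98 on chromosome 10 (-1.09 to -0.87), a difference of 0.44, and it was -0.92 for all other listed transcripts. On chromosome 9, 67 transcripts (12.9%) had at least a 2-fold higher level in WRR and 181 (34.8%) at least a 2-fold lower one. On chromosome 10, 51 (7.40%) were higher in WRR by as much and 340 (49.3%) lower. Over all listed transcripts past the same filter the shares were 9.45% higher and 46.9% lower in WRR. On this scale, over all series, the shares on chromosome 10 were nearer to this background than those on chromosome 9. This order did not hold for all measures, as the values within series below and the summed reads above show. An exact 95% interval without 1 was found for the read ratio of 58 of the 67 and 174 of the 181 on chromosome 9, and of 40 of the 51 and 321 of the 340 on chromosome 10. Such counts were not made over all listed transcripts. These transcripts had been picked by their ratio in the same reads, so the counts are no separate support.

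The order of the chromosomes was the same within each numbering series, while the direction was not. Series A had a median log2 ratio of -0.28 on chromosome 9 (-0.40 to -0.11) and -0.67 on chromosome 10 (-0.88 to -0.50). In series B it was 0.20 on chromosome 9 (0.042 to 0.52) and -0.12 on chromosome 10 (-0.35 to -0.0075). In series C it was -1.47 on chromosome 9 (-1.72 to -1.36) and -1.84 on chromosome 10 (-1.97 to -1.67). Chromosome 9 exceeded chromosome 10 by 0.39 in series A, 0.31 in B and 0.37 in C, and the intervals of the 2 chromosomes overlapped only in series C. The medians of all other listed transcripts, -0.56, 0.061 and -1.63, lay between those of chromosome 9 and chromosome 10 in every series. After centring every series on its median, chromosome 9 stood at 0.19 (0.10 to 0.28) and chromosome 10 at -0.18 (-0.26 to -0.079), ranking 15th and 27th of the 28 numbered autosomes. The direction on chromosome 9 thus depends on the scaling. Centring on the series left 109 transcripts of chromosome 9 at least 2-fold higher in WRR (21.0%) and 62 lower (11.9%). On chromosome 10 it left 92 higher (13.35%) and 129 lower (18.7%). Centred alike, 16.2% of all listed transcripts past the filter were higher and 16.6% lower. Centring all series on the overall median of -0.92 left 157 higher and 77 lower on chromosome 9, and 138 higher and 167 lower on chromosome 10. The shares over all listed transcripts on this last scale were not computed.

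Counts within the series show where the chromosomes departed from the background. In series A, 5 transcripts of chromosome 9 (4.46%) and 0 of the 124 of chromosome 10 were 2-fold or more higher in WRR, against 5.15% of all listed ones in that series. Lower in WRR by as much were 13 on chromosome 9 (11.6%) and 44 on chromosome 10 (35.5%), against 26.6%. In series B, 58 on chromosome 9 (28.2%) and 45 on chromosome 10 (18.4%) were higher in WRR, against 23.6%, and 24 (11.7%) and 39 (16.0%) were lower, against 15.9%. In series C, 4 on chromosome 9 (1.98%) and 6 on chromosome 10 (1.87%) were higher in WRR, against 0.764%, and 144 (71.3%) and 257 (80.1%) were lower, against 76.1%. Dashes followed the series as well. Past the filter, all 3 dashes in WRR on chromosome 9 and all 19 on chromosome 10 belonged to series C, and all 2 and 5 dashes in XH to series B. The same held over all listed transcripts, with 452 of 461 dashes in WRR in series C and 152 of 157 in XH in series B. Median coverage over all listed ones past the filter was 92.6% in WRR, against 81.6% in XH, in series B. In series C it was 57.7% in WRR, against 91.5% in XH.

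**Figure D3:**
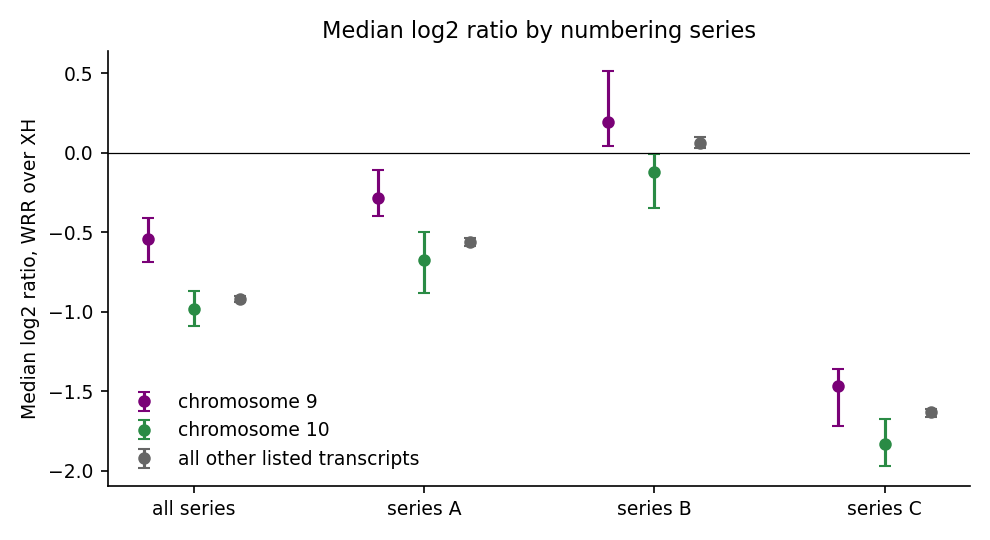
Median log2 ratio of WRR over XH (vertical axis) for chromosome 9, chromosome 10 and all other listed transcripts, over all series and within each numbering series. Bars are 95% intervals from order statistics over transcripts. Chromosome 9 lies above chromosome 10 in each series, at -0.28 against -0.67 in A, 0.20 against -0.12 in B and -1.47 against -1.84 in C.

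The median was higher on chromosome 9 in each class of level and of length, by amounts that in some classes were within the intervals. Among transcripts with a mean of at least 10 RPKM the median log2 ratio was -0.76 (-1.05 to -0.44) for the 81 on chromosome 9 and -0.87 (-1.10 to -0.71) for the 72 on chromosome 10, the smallest distance of the 4 classes of level. Among those under 2 RPKM it was -0.25 (-1.36 to 0.51) for the 83 on chromosome 9 and -1.24 (-1.62 to -0.77) for the 134 on chromosome 10, the widest. The intervals overlapped in both of these classes. Among transcripts under 500 bases it was -0.77 (-1.24 to -0.22) for the 82 on chromosome 9 and -1.30 (-1.89 to -0.97) for the 102 on chromosome 10. From 2000 bases on it was -0.59 (-0.84 to -0.38) for 58 and -0.98 (-1.21 to -0.71) for 79. The intervals overlapped in both of these classes of length as well. Within the classes the share of series C also differed, for example 48.2% on chromosome 9 and 59.7% on chromosome 10 under 2 RPKM. Its part in these differences was not tested. Gapped transcripts had medians of -0.28 (-1.01 to 0.33) on chromosome 9 (31 past the filter) and -0.74 (-1.42 to 0.027) on chromosome 10 (27). For the 970 gapped ones elsewhere it was 0.090 (-0.037 to 0.23), an interval that overlapped those of both chromosomes.

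Along chromosome 9 the ratio changed with position. Medians of the 12 windows ran from -1.44 at 6 to 8 Mb (25 transcripts, interval -2.28 to -0.67) to 0.34 at 10 to 12 Mb (41 transcripts, -0.48 to 0.80). This window and the next, at 12 to 14 Mb with a median of 0.29, were the 2 of the chromosome with a median above 0. Chosen after their values were seen, these 81 transcripts together had a median of 0.31 (-0.11 to 0.68, an interval that includes 0). It was -0.71 (-0.84 to -0.53) for the 439 past the filter elsewhere on the chromosome. Of the 81, 22 were at least 2-fold higher and 11 at least 2-fold lower in WRR. Over all listed transcripts past the filter these shares were 9.45% and 46.9%. Of the 22, 19 belonged to series B, in which 23.6% of all listed ones were higher by as much. Series C made up 9 of the 81 (11.1%) and 43.9% of the rest. Split by series, the stretch and the rest of the chromosome had medians of -0.071 (24 transcripts) and -0.35 (88) for A. For B they were 0.85 (48) and 0.087 (158), and for C -1.61 (9) and -1.47 (193). Since the stretch was chosen by these same values, they are a description only.

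On chromosome 10 no window had a median above 0. Medians of the 10 windows ran from -1.64 at 10 to 12 Mb (60 past the filter, -2.07 to -1.04) to -0.40 at 18 to 20 Mb (47, -0.91 to 0.40). The crowded window at 4 to 6 Mb stood at -1.15 (-1.39 to -0.97), with 7 transcripts (3.535%) at least 2-fold higher and 111 (56.1%) at least 2-fold lower in WRR. Over all listed transcripts past the filter these shares were 9.45% and 46.9%. Centred on the numbering series, 9 of 12 windows of chromosome 9 and 2 of 10 of chromosome 10 lay above 0, on chromosome 10 the first and the last. The share of series C in a window went with its median on chromosome 9 (Spearman's rho = -0.86 over 12 windows) and hardly on chromosome 10 (rho = -0.14 over 10 windows). Without the stretch at 10 to 14 Mb on chromosome 9 and the window at 4 to 6 Mb on chromosome 10, the medians were -0.71 and -0.90 and the difference was 0.19, with 0.23, 0.19 and 0.25 in series A, B and C.

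**Figure D4:**
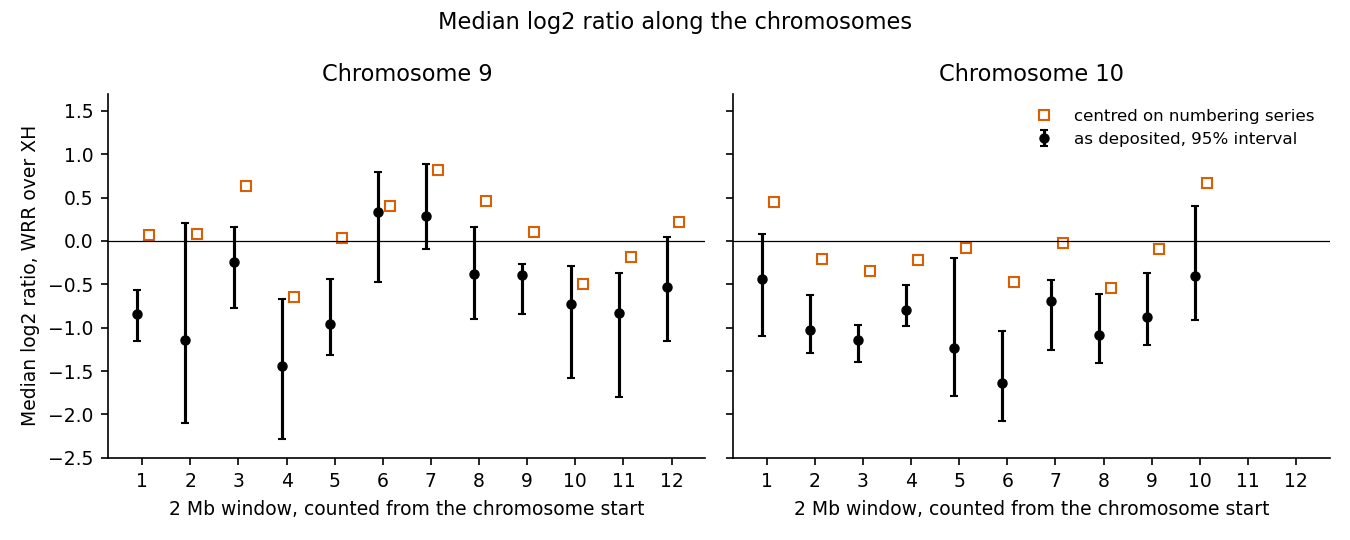
Median log2 ratio of WRR over XH (vertical axis) in consecutive 2 Mb windows counted from the start of chromosome 9 (left, 12 windows) and chromosome 10 (right, 10 windows). Filled points are values as deposited with 95% intervals from order statistics, and open squares are medians after centring each numbering series on its own median. As deposited, windows 6 and 7 of chromosome 9 alone lie above 0, at 0.34 and 0.29.

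Transcripts less than 5 kb apart were joined into clusters. Chromosome 9 held 6 clusters of 10 or more, with 81 transcripts (15.5% of those listed there), and chromosome 10 held 11, with 298 (42.5%). The share of all listed transcripts in such clusters was not computed. Transcripts with no other listed one within 5 kb numbered 124 on chromosome 9 and 103 on chromosome 10. The largest cluster of chromosome 9 had 18 transcripts (chr9:16814748-16855958) and a median log2 ratio of -0.44. The largest of chromosome 10 had 86 over 193 kb (chr10:4186538-4380029), with 26 of series A, 31 of series B and 29 of series C. Of its 81 past the filter, 51 were at least 2-fold lower and 2 at least 2-fold higher in WRR, the median was -1.26, and the summed reads had a ratio of 0.422 (0.407 to 0.437). Centred on the series this median was still -0.70. Of all listed transcripts past the filter, 46.9% were at least 2-fold lower and 9.45% at least 2-fold higher in WRR, without centring. The cluster that follows, 19 transcripts at chr10:4385031-4423148 with 14 of series C, had a ratio of summed reads of 0.420 (0.366 to 0.482), but a centred median of -0.037. The next, 51 transcripts at chr10:4433550-4510476 with 22 of series C, had a ratio of 0.748 (0.701 to 0.798) and a centred median of -0.046. Of these 3 clusters in a row, the first alone thus stood far below 0 once the series were centred. The first ends barely more than 5 kb before the second, and no other joining distance was tried.

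In some clusters nearly all transcripts lay on the same side of 0. On chromosome 10, all 22 transcripts at chr10:13158265-13202933 were lower in WRR, 20 of them at least 2-fold, with medians of 0.866 RPKM in WRR, against 3.80 RPKM in XH. Of these 22, 19 belonged to series C, and 4 had a dash in WRR. Of all listed transcripts of series C past the filter, 76.1% were at least 2-fold lower in WRR. Centred on the series, the median of the 22 was -0.59. The 22 at chr10:10414443-10447567, of which 17 belonged to series C, had the lowest median ratio of all these clusters, -2.23, with medians of 2.28 RPKM in WRR, against 11.8 RPKM in XH, and a ratio of summed reads of 0.189 (0.169 to 0.211). Centred on the series, their median was -0.82. By contrast, 21 of the 22 at chr10:13863310-13909019 belonged to series B, and their median was -0.071, with medians of 3.32 RPKM in WRR, against 3.84 RPKM in XH. The most abundant cluster of chromosome 10, 10 transcripts at chr10:14098268-14112859, had medians of 22.05 RPKM in WRR, against 39.2 RPKM in XH, and 9 of the 10 were lower in WRR.

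On chromosome 9, all 10 transcripts at chr9:11913113-11936419 were higher in WRR, with log2 ratios of 0.27 to 1.57 and a median of 0.62. Of the 10, 1 was at least 2-fold higher, against 9.45% of all listed transcripts past the filter. The ratio of summed reads was 2.11 (1.86 to 2.40). That 1 transcript, at chr9:11935013-11936419, held 509 of the 870 reads in WRR and 139 of the 337 in XH. The ratio without it was not computed. This cluster was the only one of the 17 in which every transcript was higher in WRR. It held 4 transcripts of series A, 6 of series B and 0 of series C. The 13 at chr9:13774508-13814834 had a ratio of summed reads of 1.10 (1.04 to 1.17). The 13 at chr9:1604351-1739623 went the other way, with a median log2 ratio of -2.02 and a ratio of summed reads of 0.300 (0.254 to 0.352). Of these 13, 9 were at least 2-fold lower in WRR. That share was 46.9% over all listed transcripts past the filter and 76.1% in series C. The cluster is held together by 1 gapped interval of 108476 bases (chr9:1625409-1733884), and its other members lie partly further apart than 5 kb. The 13 were 4 transcripts of series A, 2 of series B and 7 of series C. Centred on the series, their median was -1.03.

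**Figure D5:**
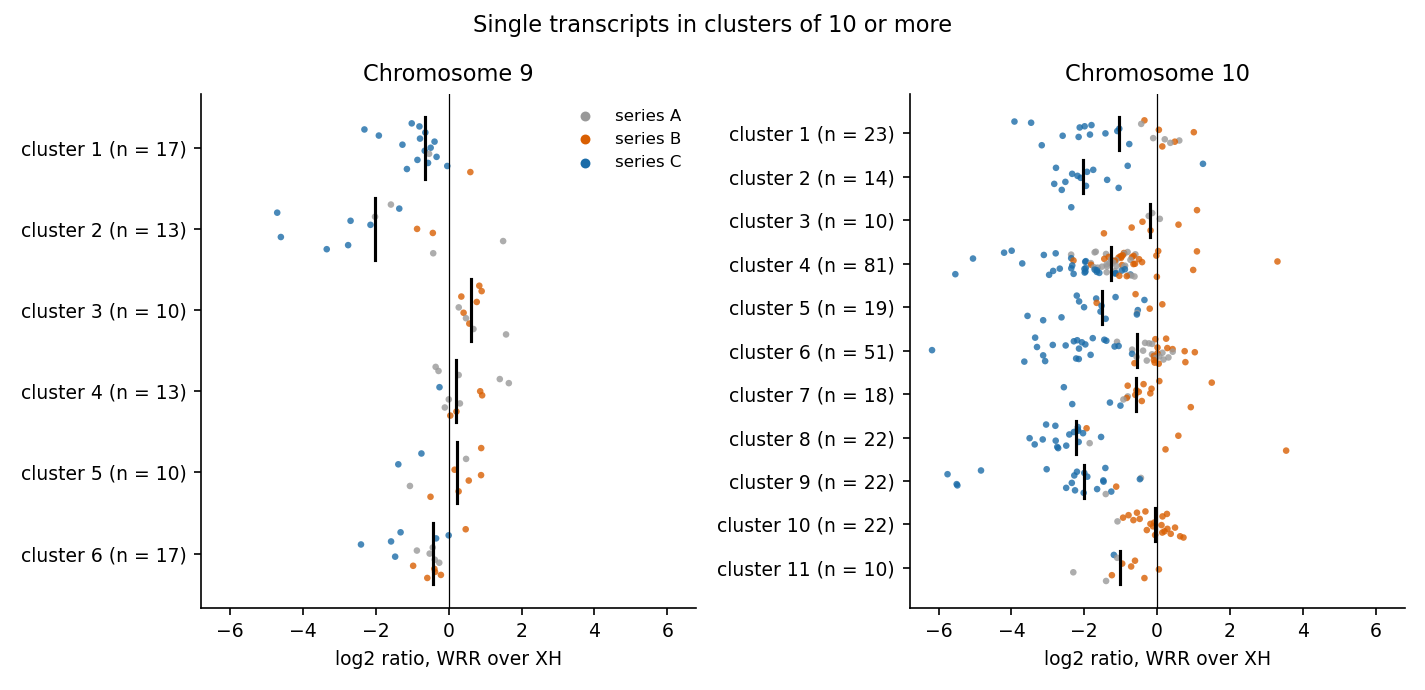
Log2 ratio of WRR over XH (horizontal axis) of each transcript past the filter in the clusters of 10 or more, in order along chromosome 9 (left) and chromosome 10 (right), with black bars at the cluster medians and colours for the numbering series. Points in a cluster run from top to bottom in order of position. Cluster 3 of chromosome 9 lies wholly above 0, and cluster 9 of chromosome 10 wholly below.

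Neighbouring transcripts tended to have similar ratios, also with each series centred. Over 271 pairs of consecutive transcripts of chromosome 9 that lay within 5 kb without overlap, the log2 ratios correlated with Pearson's r = 0.48, or 0.45 with each series centred. Over 433 such pairs of chromosome 10 the values were 0.45 and 0.43, and over 11740 pairs of all listed transcripts they were 0.37 and 0.35. Where both neighbours differed at least 2-fold, they did so in the same direction in 64 of 68 pairs on chromosome 9, in 163 of 173 on chromosome 10 and in 3901 of 4240 over all listed transcripts, a similar share. Most 2-fold differences were lower in WRR, 46.9% of all listed transcripts past the filter against 9.45% higher. Unrelated transcripts would therefore also often agree in direction. All pairs share the same 2 libraries, so these correlations are a description of them.

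Overlapping entries were more frequent on chromosome 10, and some of them disagreed in direction. Chromosome 9 held 17 overlapping pairs, 15 of which involved a gapped transcript, and chromosome 10 held 71, of which 26 did. Of the pairs with both members past the filter, 0 of 14 on chromosome 9 and 7 of 59 on chromosome 10 joined a transcript at least 2-fold higher in WRR with one at least 2-fold lower. Overlaps were not counted over all listed transcripts, so these counts have no background share. With only 14 pairs, the 0 on chromosome 9 is not read as a difference between the chromosomes. In 6 of the 7 pairs on chromosome 10 a transcript of series B was the higher and one of series C the lower. In these 6, the series C member had at most 1.82 RPKM in XH and the series B member at most 3.03 RPKM in WRR. They thus rest on low levels, and the entry at chr10:12690103-12691168 is in 2 of them. One of the 7 was at the start of the longest transcript of chromosome 10, at chr10:4264276-4278765, which had 0.387 RPKM in WRR, against 1.82 RPKM in XH. The 943-base entry that overlaps its first bases, chr10:4263962-4264904, had 2.25 RPKM in WRR, against 0.137 RPKM in XH. The table gives no strand, so it is not known whether such pairs lie on the same or on opposite strands.

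Among transcripts with reads in both libraries and at least 20 reads in all, the 4 highest ratios of chromosome 9 belonged to series B. The 203-base transcript at chr9:2116716-2116918 had 46 reads, or 24.0 RPKM, in WRR, against 2 reads (1.28 RPKM) in XH, with a WRR to XH ratio of 18.8 (4.92 to 160). The 693-base transcript at chr9:14258614-14259306 had 106 reads, or 16.2 RPKM, in WRR, against 11 reads (2.06 RPKM) in XH, with a WRR to XH ratio of 7.87 (4.23 to 16.2). Of the 4 it has the most reads. The transcripts at chr9:11896019-11896572 and chr9:15575345-15576000 had ratios of 8.99 (2.21 to 78.8) and 7.76 (1.87 to 68.7), each with 2 reads in XH.

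On chromosome 10 the 4 highest ratios also belonged to series B. The 1851-base transcript at chr10:19513230-19515080 had 64 reads over 94.2% of its length in WRR and 5 reads over 11.9% in XH, with a WRR to XH ratio of 10.5 (4.25 to 33.3). The 868-base transcript at chr10:10446700-10447567 had 23 reads in WRR against 1 in XH, with a WRR to XH ratio of 18.8 (3.05 to 774). It lies at the end of the cluster with the lowest median ratio and was the only one of its 22 transcripts at least 2-fold higher in WRR. The remaining ratios were 16.3 (2.61 to 677) at chr10:4263962-4264904 and 11.0 (2.77 to 95.7) at chr10:8407964-8409111.

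The lowest ratios all belonged to series C. On chromosome 9 the 1060-base transcript at chr9:1615345-1616404 had 1 read in WRR and 42 reads over 99.4% of its length in XH, 51.4-fold lower in WRR (8.74 to 2078). The 334-base transcript at chr9:1682152-1682485, which lies within the interval of the longest gapped transcript of the chromosome, had 0.317 RPKM in WRR, against 10.1 RPKM in XH, 31.8-fold lower in WRR (5.23 to 1305). Those at chr9:16782880-16783506 and chr9:8605958-8606399, with 1 read each in WRR, were 26.9-fold (4.35 to 1111) and 23.3-fold (3.70 to 966) lower there.

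On chromosome 10, 3 of the 4 lowest ratios rested on 4 or 5 reads in WRR, and the lowest on 1. The 1869-base transcript at chr10:6442161-6444029 had 5 reads, or 0.283 RPKM, in WRR, against 88 reads (6.10 RPKM) in XH, 21.5-fold lower in WRR (8.89 to 68.0). The 1982-base transcript at chr10:4285923-4287904, in the largest cluster, had 4 reads in WRR against 61 in XH, 18.7-fold lower in WRR (6.93 to 70.7). The 581-base transcript at chr10:1925137-1925717 had 0.911 RPKM in WRR, against 12.3 RPKM in XH, 13.5-fold lower in WRR (5.43 to 43.1). The 1128-base transcript at chr10:8806796-8807923 had 1 read in WRR against 35 in XH, 42.8-fold lower in WRR (7.20 to 1740).

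A dash, taken as 0 reads, stood in WRR for 3 of the 523 transcripts of chromosome 9 and 22 of the 702 of chromosome 10, and in XH for 3 and 11. Over all 21993 listed transcripts there were 544 dashes in WRR and 296 in XH. None of the dashes on the 2 chromosomes stood against a large number of reads. The transcripts at chr9:3843067-3843938 and chr9:7436567-7437229 had a dash in WRR and 19 reads each in XH, at least 7.75-fold lower in WRR when a floor of 3 reads per library stands for the dash. That bound takes the listed reads as exact, and the exact 95% limit, which also counts their error, was 5.71-fold for both. On chromosome 10, dashes in WRR stood against 27 reads in XH at chr10:13186744-13187531 and 23 at chr10:13171153-13171714, at least 11.0-fold and at least 9.38-fold lower there by the floor, with exact limits of 8.36 and 7.04. Both lie in the cluster in which all 22 transcripts were lower in WRR. In the other direction, chr9:11381637-11382227 had 25 reads in WRR against a dash in XH, which is at least 6.81-fold higher in WRR by the floor (exact limit 5.14), and chr9:4323945-4324499 had 13, at least 3.54-fold higher (exact limit 2.49). On chromosome 10, 18 reads in WRR at chr10:18975964-18976604 and 13 at chr10:2134169-2134889 stood against dashes in XH, at least 4.90-fold and at least 3.54-fold higher in WRR by the floor, with exact limits of 3.59 and 2.49.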

How the data were processed

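Breast muscle RNA of 1 pool of 4 hens per strain was sequenced as 1 library each. Per the file headers, the authors counted reads that mapped uniquely, and these counts were taken as raw. The authors' RPKM values divide them by length and by the library total that the file headers state: recomputing them gave 1200 of 1200 WRR values and 1211 of 1211 XH values on the 2 chromosomes within 0.001%. Coverage was deposited as a percent, taken as the share of a transcript under reads. TopHat2 2.0.8, Cufflinks 2.0.2 and the build galGal4 are named in the submitters' processing notes, with no role. Assembly, merging and the test for coding potential are not given in the sources used here.

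Deposited starts count from 0, and 1 was added for printing. A dash was taken as 0 reads, and the smallest listed count was 1. Series A ends at serial number 3658, series B runs from 3659 to 11941 and series C from 11942, limits set by the restarts of chromosome 1. Log2 ratios used a pseudocount of 0.1 RPKM and the filter 0.5 RPKM in the higher library. Ratios of single transcripts are of reads per total, without pseudocount, with exact Clopper-Pearson 95% intervals. These and the Poisson intervals cover counting error only, and without molecular identifiers reads may be copies of 1 molecule. Python 3.11.15, numpy 2.4.6, pandas 2.3.3 and scipy 1.17.1 were used, and the ratio and its interval were tested on simulated counts.

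Named were, per chromosome, the 4 transcripts of highest mean RPKM, the 4 highest and 4 lowest log2 ratios with reads in both libraries and at least 20 in all, the 2 dashes per library with most reads in the other, the longest transcript and gapped interval, and windows and gaps at the extremes. Clusters, overlaps and the stretch at 10 to 14 Mb were chosen after the values were seen. The members and measures were chosen with earlier results of these data known. Lists of fibre, fat, blood, fibroblast and satellite cell markers could not be run, since no transcript is paired with a gene name. Transcript sequences were not used here.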

Additional observations from a re-analysis of the deposited data

How the results depend on the processing

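No paired analysis was possible because WRR and XH are each a single pool, which also leaves no replicate to omit. The difference in median log2 ratio between chromosome 9 and chromosome 10 ran from 0.19 without both stretches named above to 0.46 over 12 alternatives. Centring on the overall median and scaling to listed reads move both chromosomes alike, so these 2 are no check on the difference. Centred on the median of all listed transcripts, the medians were 0.37 on chromosome 9, a reversed sign, and -0.066 on chromosome 10. The numbers 2-fold higher in WRR were then 157 and 138, and those 2-fold lower in WRR 77 and 167. The shares over all listed transcripts on this scale were not computed, so these counts have no background. Centred on the numbering series, the medians were 0.19, again reversed, and -0.18. There, 109 (21.0%) and 92 (13.35%) were higher in WRR and 62 (11.9%) and 129 (18.7%) lower. Over all listed transcripts these shares were 16.2% and 16.6%. Scaled to listed reads, the medians were -0.23 and -0.66. With a pseudocount of 1 RPKM, chromosome 10 had a median of -0.77 and 31 transcripts higher in WRR, also without a computed background. Without 10 to 14 Mb the median of chromosome 9 was -0.71. With overlapping intervals merged, chromosome 10 had 31.9 loci per Mb, and 27.9 transcripts per Mb without its window of most transcripts. Without its transcript of most reads, the reads per M reads were 3748 in WRR and 5092 in XH on chromosome 9, and 3384 and 5878 on chromosome 10. The other 77 recomputed values of these summaries stayed within their interval or within 1.5 times the count. Of the 36 named transcripts, 3 that differed at least 2-fold changed sign when centred on the numbering series, all of series C, to 0.20 at chr9:9640866-9641103, 0.16 at chr9:9803463-9803665 and 0.21 at chr10:13018451-13108429. Another 5, all under 2-fold, changed sign when centred on the overall median, to 0.080 at chr9:21734836-21735510, 0.48 at chr9:18740136-18743255, 0.046 at chr9:14828880-14839027, 0.91 at chr10:8647336-8647948 and 0.72 at chr10:8645927-8647212. The last 2 also changed sign when scaled to listed reads, to 0.31 and 0.12. Leaving out stretches of a chromosome and dividing by the chromosome size were added after the data had been seen. Depth limits single transcripts, since at the median length 1 read was worth 0.118 RPKM in WRR and 0.145 RPKM in XH.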
